A study of Homo sapiens with 12 samples.

Results

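The BH3-only genes followed here were BMF, PMAIP1 (NOXA), BBC3 (PUMA), BCL2L11 (BIM), BID, BAD, BIK and HRK. Every gene probe that the scanner files name for one of them was taken, which gave 18 of 41000 probes and 8 of 29123 gene names. The probes follow from the gene names alone, while the genes were chosen with earlier results of these data known. All 18 probes passed the filter on dim probes, as did 33467 probes in all. HuH-7 cells, which come from a human liver carcinoma and carry mutant p53, had been kept for 24 h with the solvent DMSO, with 28 µM SLMP53-2 or with 42 µM SLMP53-2, which are 2 and 3 times its IC50. SLMP53-2 is a tryptophanol-derived oxazoloisoindolinone studied as a reactivator of mutant p53. Each group held 4 biological replicates on 1-colour Agilent arrays, 12 arrays on 5 slides, and the higher dose is given as 48 µM in another label field of the same arrays. All 12 arrays come from this 1 line with its p53 mutation, so no group shows the genes with another p53 status.

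BH3-only proteins are the sensors of the mitochondrial route to apoptosis. Each carries the short BH3 helix, with which it occupies the groove of pro-survival proteins such as BCL2, BCL2L1 (BCL-XL), BCL2L2 (BCL-W) and MCL1, and some also switch on the effectors BAX and BAK1, which then open the outer mitochondrial membrane and release cytochrome c. Several are governed by transcription: BBC3 and PMAIP1 are classical p53 target genes, and PMAIP1 and BBC3 also answer to factors of the endoplasmic reticulum stress response. BID is governed largely after translation, being cut by caspase-8, and in hepatocytes it joins death receptors to the mitochondria.

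The arrays see each gene through probes of 60 bases, and HRK and BBC3 each had probes that were called and probes that were not. The files place the probes on hg19 but say nothing of exons, and an annotation of that build was not used here. The 5 probes printed below lie, from the known coding sequences, in the protein-coding part of their transcripts and are written 5′ to 3′ as the transcript reads. They are shown because 3 of them are the HRK and BBC3 probes that did not pass the test in a gene with another probe that did, and because the last pair reads almost the same stretch of BCL2L11. Capitals in HRK mark a match to CT, any 10 bases, GG, any base and GA, the codon pattern of the leucine and of the glycine with its acidic neighbour in the BH3 core. This pattern was searched as the transcript reads, and 460 of 41000 probes (1.12%) hold it, among the members the HRK probe alone. Capitals in the BCL2L11 lines mark the 46 bases that both probes share.
HRK A_24_P52882, chr12:117318970-117319029, minus strand: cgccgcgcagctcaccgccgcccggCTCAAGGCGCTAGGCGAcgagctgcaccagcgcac
BBC3 A_24_P305312, chr19:47725087-47725146, minus strand: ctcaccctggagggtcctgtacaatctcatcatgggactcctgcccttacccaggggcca
BBC3 A_23_P90189, chr19:47731434-47731493, minus strand: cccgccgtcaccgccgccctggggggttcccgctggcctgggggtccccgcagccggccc
BCL2L11 A_23_P309991, chr2:111921718-111921777, plus strand: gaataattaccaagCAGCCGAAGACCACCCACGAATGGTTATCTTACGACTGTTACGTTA
BCL2L11 A_23_P425954, chr2:111921732-111921791, plus strand: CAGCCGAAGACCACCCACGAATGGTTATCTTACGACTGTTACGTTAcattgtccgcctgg

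The remaining probes are given by position only. BMF is read by 1 probe on chr15:40380450-40380509 (minus strand) and PMAIP1 by 1 probe on chr18:57570278-57570337 (plus strand) that is spotted 10 times on each array. BAD is read on chr11:64037522-64037581 (minus strand) and BIK on chr22:43525495-43525554 (plus strand), each by 1 probe, and BID by a pair of probes between chr22:18218038-18218241 (minus strand). HRK has 3 further probes between 117294005 and 117299112 of chromosome 12, BBC3 a further one on chr19:47724174-47724233, and BCL2L11 3 further ones between 111911357 and 111925951 of chromosome 2.

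The hepatocyte genes ALB, AFP, APOA1, APOA2, APOB, TTR, SERPINA1, TF, FGB and HNF4A were well above background on all 12 arrays, and ALB lay between 15.91 and 16.37 on the normalized log2 scale. Of the markers of other cells, the leukocyte gene PTPRC was well above background on 0 arrays, ACTA2 on 1, KRT5 on 2, COL1A1 on 7 and PECAM1 on 11, while CD68 and COL1A2 were so on all 12. Between 65.0% and 85.0% of gene spots per array were well above background, and no gene spot was saturated. The 28 µM arrays scattered more than the others, with a median SD per probe of 0.245 against 0.18 for DMSO and 0.188 for 42 µM, and 28 µM replicate 4 stood apart from its group in several of the genes below, close to DMSO. Results at 28 µM are therefore given with and without that array. It was singled out from the values of these same genes, so results without it are a description and no independent support. A change in the share of cells that hold a transcript and a change in its amount per cell cannot be told apart in bulk RNA.

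After 42 µM, the RNA of 4 of the 8 genes was higher than in DMSO by at least one probe: BMF rose 3.89-fold, BBC3 2.69-fold on 1 of 3 probes, HRK between 1.73-fold and 2.09-fold on 3 of 4 probes, and PMAIP1 1.89-fold. BCL2L11, BID, BAD and BIK had no probe past the limits, and no member was called lower. Counting a gene by any of its probes favours genes with several probes. In a fit of only the brightest probe of each gene, 2 of the 8 genes were called, BMF and PMAIP1. In that fit 407 of 24168 probes were called higher and 375 lower. In numbers, 6 of 18 probes were called at an adjusted p (limma, Benjamini-Hochberg over 33467 probes) under 0.05 with a log2 difference of at least 0.6, where 2.64% of all probes were called in either direction, 1.41% higher and 1.23% lower. The 4 arrays of 42 µM lay wholly above the 4 of DMSO for the same 6 probes and wholly below them for 1 BID probe, against 5.83% of all probes above and 6.49% below. Over the 18 probes the median log2 difference was 0.15, and over all probes tested it was -0.01.

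**Figure D1:**
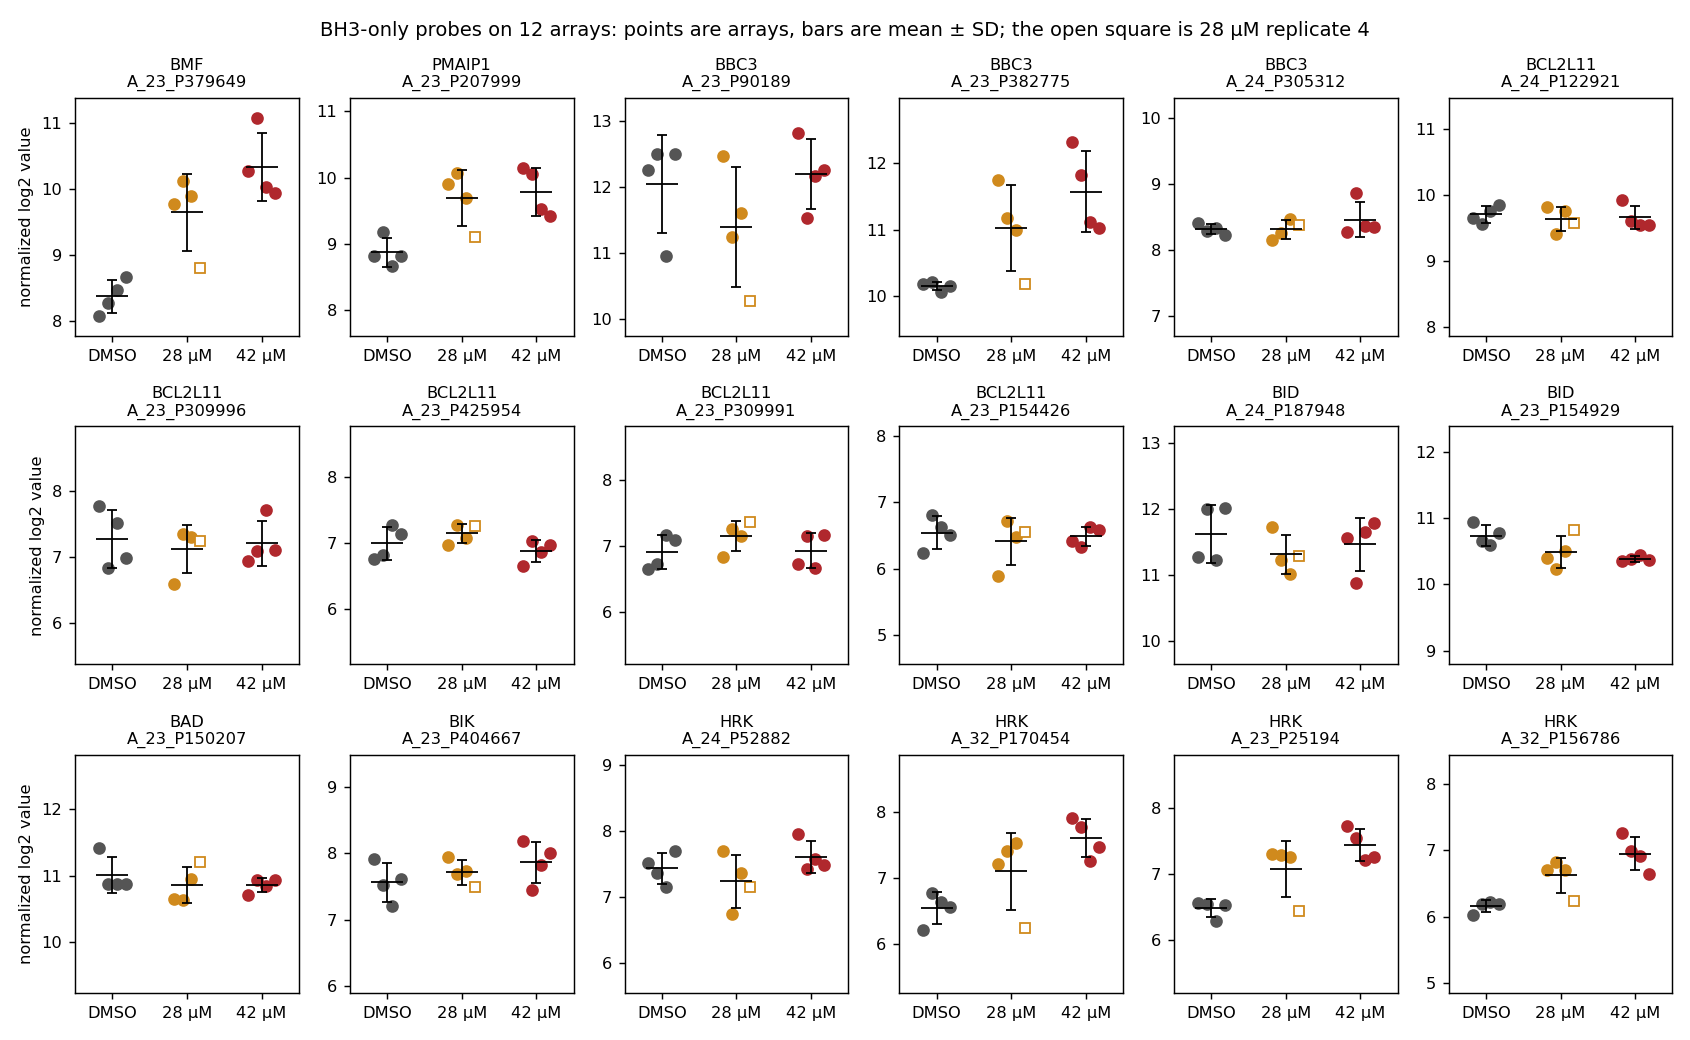
Normalized log2 value (y axis, a span of the same height in every panel) of each of the 18 BH3-only probes on the 12 arrays, by group (x axis), with the mean and SD of each group as bars and 28 µM replicate 4 as an open square. The 4 arrays of 42 µM lie above all DMSO arrays for BMF, PMAIP1, BBC3 A_23_P382775 and the HRK probes A_32_P170454, A_23_P25194 and A_32_P156786.

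BMF, whose protein is held on dynein light chains of the cytoskeleton until it is freed, had the largest change of the 18 probes. Its 4 DMSO arrays read 8.08, 8.28, 8.48 and 8.67 on the log2 scale. The 28 µM arrays read 9.77, 10.13, 9.90 and 8.81, and the 42 µM arrays 10.28, 11.08, 10.04 and 9.94. Neither dose overlapped DMSO, and 28 µM replicate 4 was the one treated array close to it. The log2 difference was 1.96 (SE 0.29, 95% interval 1.34 to 2.58, limma adjusted p = 0.0112) at 42 µM, the 27th highest of all probes tested. Within the 3 slides that hold arrays of both groups it was 1.61, 1.76 and 2.60. At 28 µM the log2 difference was 1.28 (SE 0.29, 95% interval 0.66 to 1.90), which did not pass over all probes (limma adjusted p = 0.175). Without 28 µM replicate 4 it was 1.56 (SE 0.24, limma adjusted p = 0.00625).

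PMAIP1 encodes NOXA, a small BH3-only protein that binds MCL1 by preference. DMSO arrays read 8.82, 9.18, 8.67 and 8.81, 28 µM arrays 9.91, 10.07, 9.69 and 9.10, and 42 µM arrays 10.14, 10.05, 9.53 and 9.42. All 42 µM arrays lay above all DMSO arrays, and of the 28 µM arrays only replicate 4 fell within the DMSO range. The log2 difference at 42 µM was 0.91 (SE 0.22, 95% interval 0.44 to 1.39, limma adjusted p = 0.0404). With the authors' normalized values it was 0.84 (limma adjusted p = 0.0579) and was not called. Within the 3 slides that hold arrays of both groups the log2 difference was 0.35, 1.33 and 1.37. At 28 µM the log2 difference was 0.82 (SE 0.22, limma adjusted p = 0.206) with all arrays and 1.02 (SE 0.19, limma adjusted p = 0.0167) without 28 µM replicate 4. The level did not step up clearly from one dose to the next: the log2 difference of 42 µM from 28 µM was 0.09, with a 95% interval of -0.38 to 0.56.

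Because PMAIP1 was spotted 10 times on each array, the scatter among its spots could be set beside the scatter between arrays. The scatter between arrays holds differences between cultures, hybridizations and slides together, which cannot be told apart here. The SD among the 9 or 10 spots used per array was 0.08 to 0.22, about the same as the SD of 0.21 between the 4 DMSO arrays and below those of 0.42 at 28 µM and 0.36 at 42 µM. Each array mean rests on 9 or 10 spots, so the scatter of its mean is smaller still. On 28 µM replicate 4 the spots ran from 8.83 to 9.25, below the lowest spot of the other 28 µM arrays at 9.42. The low value of PMAIP1 there was thus shared by all 10 spots, which does not tell the culture from the array.

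**Figure D2:**
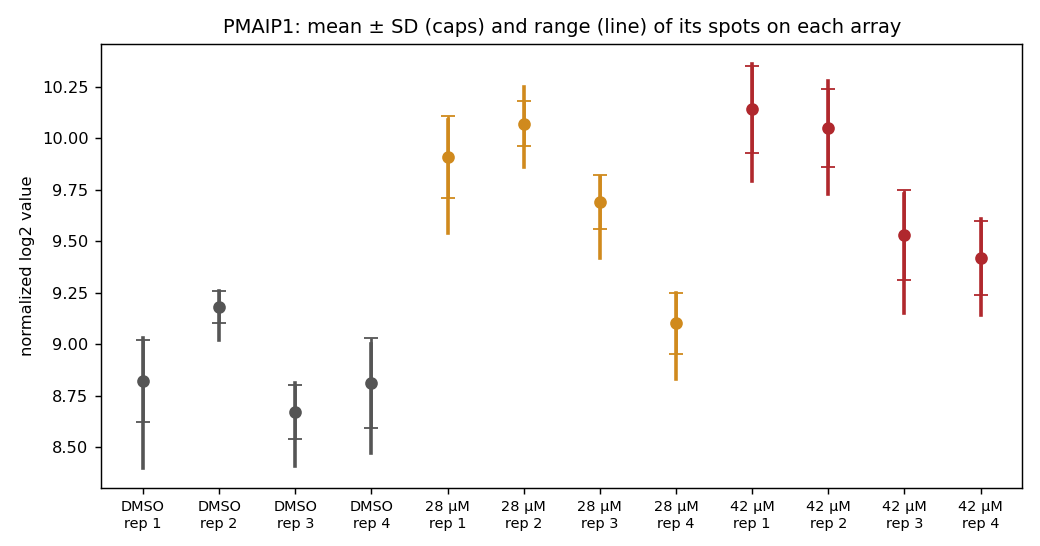
Normalized log2 value (y axis) of the 9 or 10 PMAIP1 spots used on each of the 12 arrays (x axis), with the mean as a point, the SD among spots as caps and the lowest to highest spot as a line. The spots of 28 µM replicate 4 lie between 8.83 and 9.25, apart from those of the other 28 µM arrays, which begin at 9.42.

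HRK encodes Harakiri, a BH3-only protein best known from neurons that binds BCL2 and BCL2L1. Its 3 probes at the 3′ end of the gene were higher at 42 µM, and the coding probe printed above was not. The 3′-most probe, A_32_P170454, read 6.21, 6.77, 6.63 and 6.56 in DMSO, 7.21, 7.41, 7.53 and 6.24 at 28 µM and 7.91, 7.77, 7.26 and 7.47 at 42 µM. Its log2 difference at 42 µM was 1.06 (SE 0.25, limma adjusted p = 0.0377). The probe 3.63 kb upstream of it, A_32_P156786, read 6.03, 6.19, 6.22 and 6.19 in DMSO, 6.71, 6.83, 6.71 and 6.24 at 28 µM and 7.26, 6.99, 6.91 and 6.65 at 42 µM. Here both doses lay wholly above DMSO, and the log2 difference at 42 µM was 0.79 (SE 0.15, limma adjusted p = 0.0176). The probe 5.05 kb upstream, A_23_P25194, read 6.56, 6.55, 6.28 and 6.53 in DMSO, 7.30, 7.29, 7.26 and 6.44 at 28 µM and 7.72, 7.55, 7.21 and 7.25 at 42 µM, a log2 difference of 0.95 (SE 0.19, limma adjusted p = 0.0195). On each of the 3 probes, 28 µM replicate 4 was the array of its group that read closest to DMSO. Within the 3 slides with both groups, the log2 differences of the 3 probes at 42 µM ran from 0.49 to 1.35.

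The coding probe of HRK, A_24_P52882, lies 25.0 kb upstream of the 3′-most one. Distances between probes are given on the genome (hg19) and are not lengths of transcript. The array annotation names another transcript record for A_32_P170454 and A_32_P156786 than for A_24_P52882 and A_23_P25194. Whether all of them read the same transcript was not tested. The coding probe is described next. It read 7.52, 7.36, 7.15 and 7.70 in DMSO, 7.69, 6.74, 7.36 and 7.15 at 28 µM and 7.96, 7.42, 7.58 and 7.48 at 42 µM, and all groups overlapped. Its log2 difference at 42 µM was 0.18 (95% interval -0.24 to 0.60, limma adjusted p = 0.767). Its DMSO mean was 7.43, and it was well above background on all 12 arrays. The 3 HRK probes that rose were dimmer, with DMSO means of 6.16 to 6.54. Of these 3, 2 were well above background on only 3 of the 4 DMSO arrays. With normexp in place of the Edwards correction the 3 probes differed by 0.68 to 0.96 on the log2 scale, and all 3 were called. With Agilent's processed signal scaled to the 75th percentile, which changes both background and scaling, they differed by 1.84 to 1.89 on the log2 scale, over 1.5 times the values above, with 2 of the 3 called. With the main background correction kept and only the scaling changed, to a common 75th percentile, they differed by 0.78 to 1.08, and 0 of the 3 were called (lowest limma adjusted p = 0.061).

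At 28 µM the 3 HRK probes at the 3′ end differed from DMSO by 0.46 to 0.59 on the log2 scale and did not pass (lowest limma adjusted p = 0.271). Without 28 µM replicate 4, A_23_P25194 differed by 0.80 (limma adjusted p = 0.0125) and A_32_P170454 by 0.84 (limma adjusted p = 0.0272), both called. A_32_P156786 then differed by 0.59 (limma adjusted p = 0.0468), just under the log2 limit. The coding probe differed by -0.20 with all arrays and by -0.17 without that one.

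BBC3 encodes PUMA, which binds all the main pro-survival proteins. Its 3′-most probe, A_23_P382775, read 10.18, 10.21, 10.06 and 10.14 in DMSO, 11.75, 11.18, 10.99 and 10.18 at 28 µM and 12.32, 11.83, 11.11 and 11.03 at 42 µM. The DMSO arrays agreed within an SD of 0.07, all 42 µM arrays lay above them, and 28 µM replicate 4 lay among them. The log2 difference at 42 µM was 1.43 (SE 0.31, 95% interval 0.75 to 2.10, limma adjusted p = 0.0288), and within the 3 slides with both groups it was 0.90, 1.78 and 2.18. At 28 µM it was 0.88 (SE 0.31, limma adjusted p = 0.320) with all arrays and 1.16 (SE 0.28) without 28 µM replicate 4, where the limma adjusted p of 0.05 fell at the limit, just inside it.

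The coding probes of BBC3 read otherwise. A_24_P305312, only 0.913 kb upstream, read 8.41, 8.29, 8.34 and 8.23 in DMSO, 8.15, 8.26, 8.47 and 8.39 at 28 µM and 8.28, 8.86, 8.37 and 8.35 at 42 µM. These values overlapped throughout, and the log2 difference at 42 µM was 0.15 (95% interval -0.14 to 0.44, limma adjusted p = 0.703). A_23_P90189, which lies 7.26 kb upstream, read 12.26, 12.49, 10.95 and 12.50 in DMSO, 12.46, 11.24, 11.60 and 10.27 at 28 µM and 12.82, 11.53, 12.17 and 12.26 at 42 µM. It scattered widely in every group, with SDs of 0.74, 0.91 and 0.53, and its log2 difference at 42 µM was 0.15 (95% interval -0.80 to 1.09, limma adjusted p = 0.934).

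Whether the probes of one gene differed in their response was tested on the difference between a pair of probes on the same array, a test added after the values had been seen. There were 20 pairs within genes at each dose, 40 comparisons in all, and an exact two-sided permutation test of 4 against 4 arrays cannot give less than 0.0286. At 42 µM, 4 pairs reached that value: the HRK coding probe against each of the 3 other HRK probes, with responses lower by 0.62 to 0.88 on the log2 scale, and BBC3 A_23_P382775 against A_24_P305312, with a response higher by 1.28. The groups of 4 differences did not overlap in these pairs. At 28 µM, 2 pairs reached it, BBC3 A_23_P90189 against A_23_P382775 (-1.53) and HRK A_24_P52882 against A_23_P25194 (-0.79). After Benjamini-Hochberg adjustment over the 40 comparisons of this exact test the lowest p was 0.191. With this floor, 23 of the 40 would have had to reach it for any to pass, so the adjusted values could hardly pass in this design and show nothing either way, and a difference between probes remains a description.

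Base composition moved with these probe differences in part. The HRK coding probe holds 76.7% G and C and stands at the 99.7th percentile of gene probes, whose median is 41.7%, while the 3 HRK probes that rose hold 45.0% or less. Of the BBC3 probes, A_23_P90189 holds 85.0%, but A_24_P305312 holds 60.0% and the probe that rose 55.0%. The part of base composition, of distance from the 3′ end and of transcript variants in these differences was not tested.

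BCL2L11 encodes BIM, which binds all the main pro-survival proteins and can activate BAX directly. None of its 5 probes was called at either dose, and the smallest limma adjusted p over both was 0.633. The brightest, A_24_P122921, read 9.65, 9.56, 9.76 and 9.84 in DMSO, 9.82, 9.41, 9.75 and 9.57 at 28 µM and 9.92, 9.61, 9.55 and 9.55 at 42 µM. Its log2 difference at 42 µM was -0.04 with a 95% interval of -0.32 to 0.24, so a change past the limit of 0.6 lay outside that interval. The overlapping pair printed above gave -0.12 (A_23_P425954) and 0.01 (A_23_P309991) at 42 µM and 0.15 and 0.24 at 28 µM. The remaining probes, A_23_P154426 and A_23_P309996, both gave -0.06 at 42 µM. The widest interval of the 5, that of A_23_P309996 far upstream, ran from -0.58 to 0.45. For A_23_P309996 the array annotation names another transcript record than for the other BCL2L11 probes. Whether it reads the same transcript was not tested.

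BID was read by a pair of neighbouring probes. A_23_P154929 read 10.94, 10.65, 10.59 and 10.78 in DMSO, 10.40, 10.24, 10.51 and 10.82 at 28 µM and 10.35, 10.38, 10.44 and 10.37 at 42 µM. All 42 µM arrays lay below all DMSO arrays, but the log2 difference of -0.35 (SE 0.13, 95% interval -0.64 to -0.07) did not pass over all probes (limma adjusted p = 0.187). The other BID probe, A_24_P187948, averaged 11.62 ± 0.44 in DMSO and 11.47 ± 0.40 at 42 µM (SD, n = 4 each). Its log2 difference was -0.15 (95% interval -0.67 to 0.36, limma adjusted p = 0.856). On both BID probes, a fall past the limit of 0.6 lay within the interval.

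BAD, which is kept inactive by phosphorylation and 14-3-3 proteins, differed by -0.15 at both doses. Its arrays read 11.42, 10.87, 10.87 and 10.87 in DMSO, 10.65, 10.63, 10.95 and 11.21 at 28 µM and 10.71, 10.93, 10.84 and 10.94 at 42 µM, which overlap, and the 95% interval at 42 µM was -0.50 to 0.19. BIK, a BH3-only protein of the endoplasmic reticulum, read 7.92, 7.52, 7.20 and 7.62 in DMSO, 7.95, 7.69, 7.74 and 7.49 at 28 µM and 8.18, 7.45, 7.83 and 8.00 at 42 µM. Its groups overlapped too, with a log2 difference of 0.30 at 42 µM (95% interval -0.09 to 0.69, limma adjusted p = 0.491). For BIK, a rise past the limit of 0.6 lay within the interval, so these arrays did not exclude it.

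**Figure D3:**
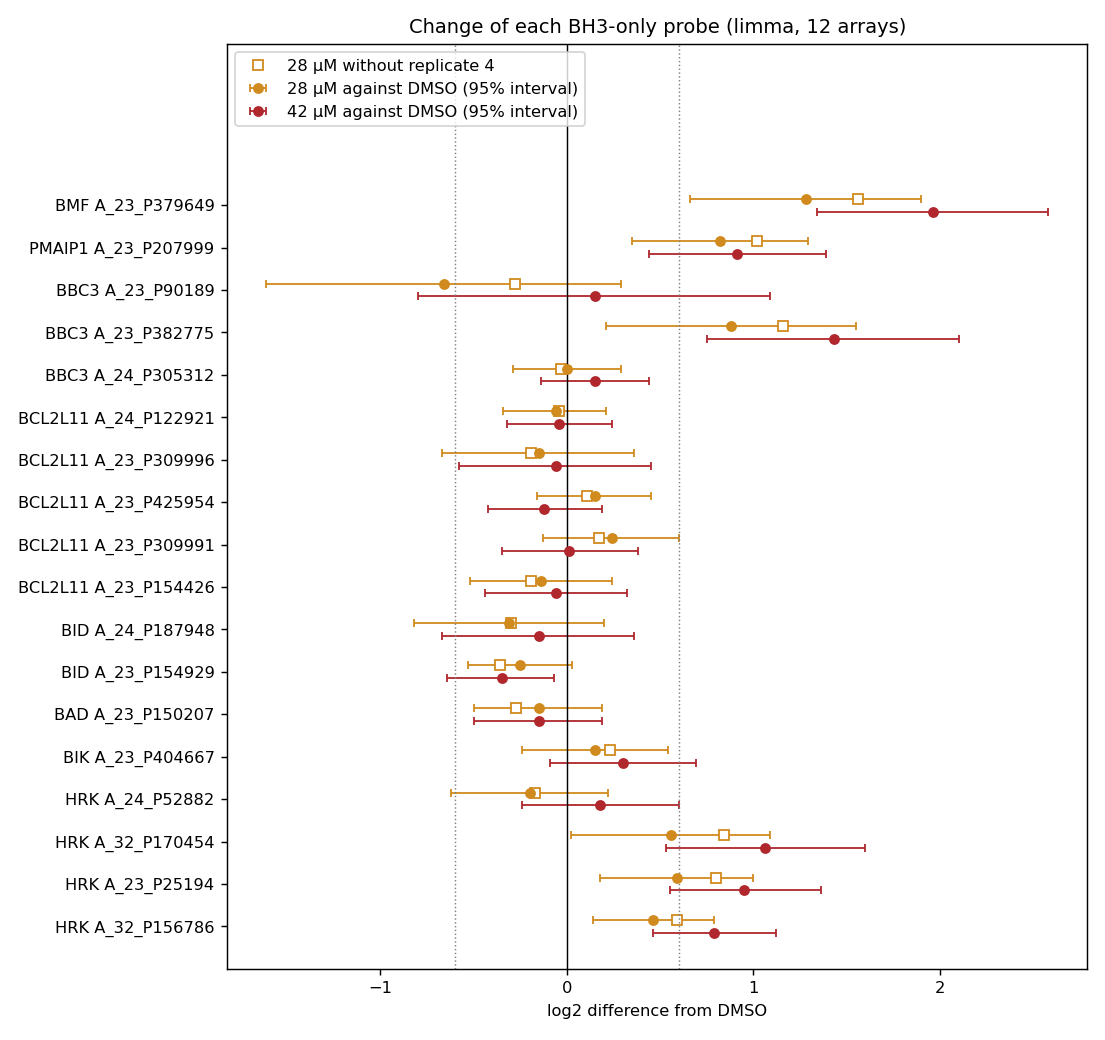
Log2 difference from DMSO (x axis) of each of the 18 BH3-only probes (y axis) with its 95% interval at 28 µM and 42 µM, and the 28 µM value without replicate 4 as an open square, with dotted lines at the log2 limits of -0.6 and 0.6. At 42 µM the intervals of BMF, PMAIP1, 1 BBC3 probe and 3 HRK probes lie above 0, and the interval of BID A_23_P154929 lies below it.

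The doses were also compared as counts, though both comparisons share the DMSO arrays. At 28 µM, limma called 0 of 18 BH3-only probes with all arrays, as it did 0 of 33467 probes in all (0%), and 3 member probes (BMF, PMAIP1 and BBC3 A_23_P382775) had an unadjusted p under 0.05 with a log2 difference of at least 0.6, against 1.36% of all probes higher and 1.02% lower. BMF and HRK A_32_P156786 did not overlap DMSO at 28 µM, 2 of 18 probes, against 2.69% of all probes above and 2.68% below. Without 28 µM replicate 4, 5 of 18 probes were called higher at 28 µM, in the same 4 genes that were called at 42 µM, against 1.31% of all probes higher and 0.84% lower. In that fit the 6 probes called at 42 µM stood against 2% of all probes higher and 1.64% lower. The array left out was chosen after these values had been seen, so the shared genes are no independent support. Between 42 µM and 28 µM, limma called 0 of 18 member probes and 0% of all probes, and BMF alone had an unadjusted p under 0.05 with such a difference (log2 difference 0.68, 95% interval 0.06 to 1.30), against 0.117% of all probes higher and 0.167% lower. No member probe was free of overlap between the doses, against 0.631% of all probes higher and 0.85% lower at 42 µM.

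The calls at 42 µM rested on all arrays to different degrees. When each of the 12 arrays was left out in turn, BMF differed by 1.71 to 2.09 and lost its call in 2 of 12 fits, whereas PMAIP1 differed by 0.80 to 1.04 and lost it in 8. BBC3 A_23_P382775 differed by 1.18 to 1.61 and lost its call in 6, and the HRK probes A_32_P156786, A_23_P25194 and A_32_P170454 lost theirs in 4, 6 and 7. Without DMSO replicate 2 or without 42 µM replicate 2, limma called 0 of the 18 probes, and 0 of all probes in the same fits. Without DMSO replicate 1 or DMSO replicate 4 only BMF was called, and all probes called higher then fell from 472 to 130 and 159 of 33467. Without DMSO replicate 3 or 42 µM replicate 1 only BMF and 1 HRK probe were called, beside 242 and 273 of all probes higher. With the slide as a fixed block the 6 log2 differences were 0.80 to 1.94, near their values without it, and none passed (limma adjusted p = 0.0598 to 0.118). In that fit 0 of 33467 probes were called higher and 1 lower, so the calls of the other genes named below were lost with it as well.

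The proteins that BH3-only proteins bind or act through were described with the brightest probe of each gene. Over all 24168 genes so represented, 1.58% were called higher and 1.42% lower at 42 µM, and 16.1% had an unadjusted p under 0.05. The lists were chosen with earlier results of these data known, so their counts are no independent evidence. Of 6 pro-survival genes 1 was called at 42 µM, and it was higher. BCL2L2, which encodes BCL-W, had means of 9.49 ± 0.16 for DMSO, 10.29 ± 0.43 for 28 µM and 10.39 ± 0.38 for 42 µM (± SD over 4 arrays), and its log2 difference at 42 µM was 0.90 (SE 0.22, limma adjusted p = 0.0419). At 28 µM it was 0.79 (limma adjusted p = 0.211) with all arrays and 1.01 (limma adjusted p = 0.0137) without 28 µM replicate 4. The other 5 differed by -0.33 to 0.09 at 42 µM, and MCL1, named for its bond with NOXA after its values were seen, differed by -0.10. The list's median was -0.05, beside -0.01 over all probes.

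Of the effectors, BAX differed by -0.33, BAK1 by -0.02 and BOK, a relative of both, by 0.38 at 42 µM. None of the 3 was called, and none had an unadjusted p under 0.05 in limma. Of 8 genes downstream of the mitochondria, among them cytochrome c, APAF1 and the caspases 9, 3 and 7, 0 were called and 2 had an unadjusted p under 0.05 in limma, with differences of -0.15 to 0.34. Of 7 binding partners and activators (DYNLL1, DYNLL2, CASP8, YWHAZ, YWHAQ, PPP3CA and HUWE1), 0 were called and 3 had an unadjusted p under 0.05 in limma, with differences of -0.46 to 0.37. Of 5 BH3-like genes (BNIP3, BNIP3L, BECN1, BCL2L13 and BCL2L14), 0 were called and 1 had an unadjusted p under 0.05 in limma, with differences of -0.57 to 0.32. Without 28 µM replicate 4 the counts of called genes at 42 µM were the same in each of these lists, 0 each.

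Of 9 transcription factors known to act on BH3-only genes, 6 were called higher at 42 µM and 0 lower, with a list median of 0.76. Over all genes 1.58% were called higher, and this list too was drawn up with earlier results of these data known. DDIT3, the stress factor CHOP, had means of 7.95 ± 0.18 for DMSO, 9.45 ± 0.94 for 28 µM and 10.15 ± 0.73 for 42 µM (± SD over 4 arrays), a log2 difference of 2.19 (SE 0.41, limma adjusted p = 0.0166). ATF3, another stress-induced factor, differed by 2.13 (SE 0.42, limma adjusted p = 0.0196). CEBPB differed by 1.45 (SE 0.32, limma adjusted p = 0.0302) and FOXO3, a forkhead factor held back by AKT, by 0.81 (SE 0.18, limma adjusted p = 0.0303). Also called were ATF4 and JUN, which differed by 0.76 and 0.66. ATF3, CEBPB and FOXO3 each had a further tested probe, which was not called at 42 µM. The further probe of ATF4 was called, and DDIT3 and JUN had 1 probe each. The 3 genes whose brightest probe was not called, FOXO1, E2F1 and TP73, differed by -0.77 to -0.13. At 28 µM limma called 0 of the 9 with all arrays, 6 had an unadjusted p under 0.05 against 11.9% of all genes, and 5 were called without 28 µM replicate 4.

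**Figure D4:**
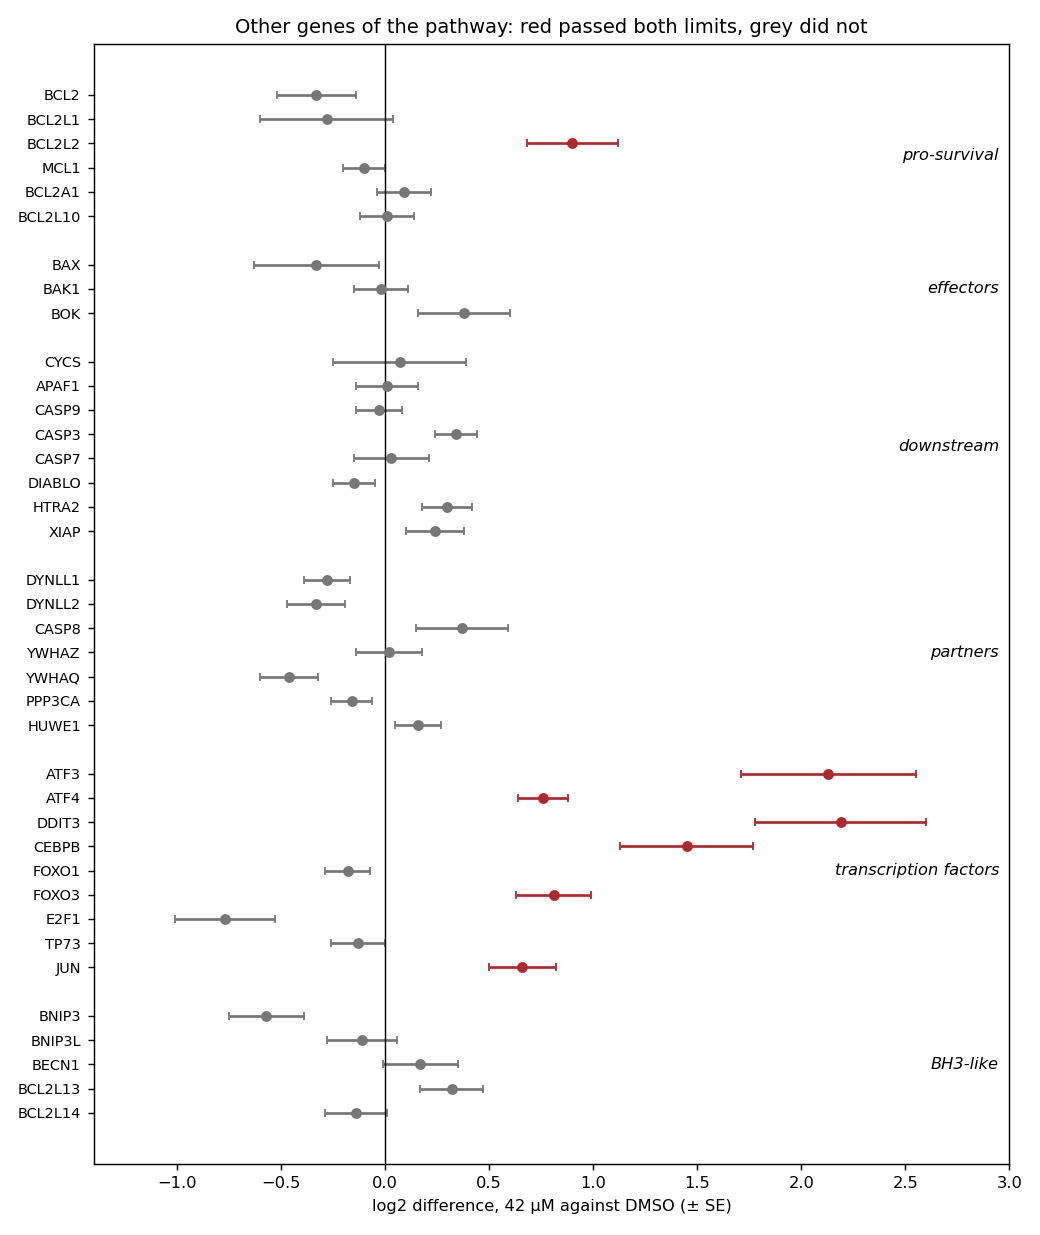
Log2 difference between 42 µM and DMSO with its SE (x axis) of the brightest probe of each gene (y axis) in 6 lists, in red where the gene passed both limits. The red points are BCL2L2 among the pro-survival genes and ATF3, ATF4, DDIT3, CEBPB, FOXO3 and JUN among the transcription factors.

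The 250 bases before the start sites of PMAIP1, HRK, BMF and BBC3 are printed from RefSeq (GRCh38.p14) because these 4 genes were called and because stress factors of the list above bind known letters. The letters searched on both strands were TGACGT (the core of the ATF and CREB site), TGATGNAAN (the composite C/EBP and ATF site) and TGATGCAAT, a stricter form that is a special case of it. Of 35116 promoter entries, each from 250 bases before to 50 after a start site, 7.98%, 3.61% and 0.236% hold them. Promoters were found for 7 of the 8 members, all but BIK, in 13 entries. Counting a gene by any of its entries, TGACGT was held by BAD and PMAIP1, TGATGNAAN by HRK and TGATGCAAT by none. The shares of all promoters count entries and not genes. Capitals mark ACGTCA, the reverse of TGACGT, whose first base lies 56 bases before the start site in PMAIP1, and TGATGTAAC, whose first base lies 75 bases before it in HRK. The printed bases of BMF, 1 of its 2 entries, and those of BBC3 hold no match. BAD, whose RNA did not pass the test, holds TGACGT as well, and a match is a description of the letters and not a site.
PMAIP1, chr18:59899746-59899995, plus strand: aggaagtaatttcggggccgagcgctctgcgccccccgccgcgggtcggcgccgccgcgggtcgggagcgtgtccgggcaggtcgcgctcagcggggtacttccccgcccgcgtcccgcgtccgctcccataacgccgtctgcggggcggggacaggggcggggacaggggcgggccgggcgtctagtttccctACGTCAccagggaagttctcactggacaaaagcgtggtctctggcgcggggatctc
HRK, chr12:116881442-116881691, minus strand: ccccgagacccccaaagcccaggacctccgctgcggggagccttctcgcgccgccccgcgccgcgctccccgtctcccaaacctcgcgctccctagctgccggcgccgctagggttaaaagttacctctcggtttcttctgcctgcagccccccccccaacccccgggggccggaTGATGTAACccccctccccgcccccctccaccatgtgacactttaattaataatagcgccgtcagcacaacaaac
BMF, chr15:40108880-40109129, minus strand: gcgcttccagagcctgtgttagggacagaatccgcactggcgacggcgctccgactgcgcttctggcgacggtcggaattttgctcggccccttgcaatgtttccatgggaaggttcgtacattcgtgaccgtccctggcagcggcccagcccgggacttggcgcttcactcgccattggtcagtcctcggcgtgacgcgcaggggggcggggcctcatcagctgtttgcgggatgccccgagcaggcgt
BBC3, chr19:47232668-47232917, minus strand: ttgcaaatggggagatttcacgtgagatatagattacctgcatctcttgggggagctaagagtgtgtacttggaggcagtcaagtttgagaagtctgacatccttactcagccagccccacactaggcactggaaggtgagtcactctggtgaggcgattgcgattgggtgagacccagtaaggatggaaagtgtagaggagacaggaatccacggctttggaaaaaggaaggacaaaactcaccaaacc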

How the data were processed

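The authors deposited the Agilent Feature Extraction (10.7.3.1) output of each array, with spot and background intensities, and their own normalized log2 values (Edwards background correction, quantile normalization). Probe positions are on hg19 per the file headers. From the deposited intensities, control and outlier spots were left out, values were corrected (Edwards), quantile normalized and put on the log2 scale with limma 3.58.1 in R 4.3.3 (files read with version 1.17.8 of data.table), and replicate spots were averaged per probe. Probes that failed the well-above-background flag on 3 or more of the 4 arrays of each group were removed, 7533 of 41000. The limma model (lmFit, eBayes) took 12 arrays in 3 groups (two-sided, Benjamini-Hochberg over 33467 probes), and a probe was called at an adjusted p under 0.05 and a log2 difference of at least 0.6. Probes were kept apart, and the brightest stood for a gene in the pathway lists and likeness. The number of arrays limits the precision.

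Named are all members with every probe, the called genes of each list up to 4, the genes of a list of 3, and the 5 genes most like BMF and PMAIP1. The members and lists were chosen with earlier results of these data known. Alternatives were normexp (offset 50), processed or Edwards signals scaled to the 75th percentile, the authors' values, no or a strict filter, slide or replicate blocks, only the groups compared, other log2 limits, the brightest probe, and leaving out each array. A planned search of the protein sequences for the BH3 core was not run, and the codon pattern in the probes stands in its place. Python 3.11.15 with numpy 2.4.6, pandas 2.3.3, scipy 1.17.1 and matplotlib 3.10.9 made the other values and plots.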

Additional observations from a re-analysis of the deposited data

Results flagged for a closer look

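In 54 sets of 4 arrays (18 probes, 3 groups), 8 had an array set apart from the other 3 by more than Dixon's 95% critical share of the range, where chance gives about 1 in 20. For HRK A_23_P25194, DMSO replicate 3 read 6.28 against 6.53 to 6.56 in the other DMSO arrays, and 28 µM replicate 4 read 6.44 against 7.26 to 7.30 in its group. For HRK A_32_P156786, DMSO replicate 1 read 6.03 against 6.19 to 6.22. For the coding probes of BBC3, DMSO replicate 3 read 10.95 against 12.26 to 12.50 on A_23_P90189, and 42 µM replicate 2 read 8.86 against 8.28 to 8.37 on A_24_P305312. For BCL2L11, 28 µM replicate 1 read 6.59 against 7.25 to 7.36 on A_23_P309996, and 42 µM replicate 1 read 9.92 against 9.55 to 9.61 on A_24_P122921. For BAD, DMSO replicate 1 read 11.42 while the other 3 all read 10.87.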

How the results depend on the processing

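The count of 6 called BH3-only probes at 42 µM fell to 3 with the processed signal scaled to the 75th percentile (BMF and HRK), to 3 with the Edwards values scaled that way (BMF, PMAIP1 and BBC3), to 3 at a log2 limit of 1, to 2 with the brightest probe of each gene (BMF and PMAIP1) and to 0 with the slide as a fixed block, where 0 of all probes were called higher and 1 lower. It was 5 with the authors' values and 6 with normexp, either filter, a random slide effect, a fit of just the groups compared and no log2 limit. Leaving out each array in turn gave counts from 0 to 6 for 42 µM and from 0 to 5 for 28 µM, where 5 came without 28 µM replicate 4. Between the doses the count was 0 throughout. No member's difference changed its direction in a way that changed a call, and no cause of a lost call was tested. Over all probes the calls at 42 µM, 472 higher and 413 lower, became 278 and 342 with the processed signal and 319 and 493 with the scaled Edwards values. They were 471 and 403 with the authors' values, 449 and 399 with normexp and 209 and 157 at a log2 limit of 1. Without a log2 limit they were 538 and 494, with a random slide effect 604 and 513, and with only the groups compared 657 and 534. Of 41000 probes without a filter 443 and 386 were called, and of 28405 under the strict filter 500 and 443. In the fit of the brightest probes 407 and 375 of 24168 were called.

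Replicate numbers were shared by the groups, but deviations of same-numbered arrays correlated by -0.46 to 0.62, so the numbers were not taken to pair the arrays. With the replicate block, 6 member probes were called at 42 µM, 0 at 28 µM and 0 between the doses, and over all probes 776 were called higher and 590 lower at 42 µM. The 3 called HRK probes are dim in DMSO, and 2 of them were well above background on 3 of 4 DMSO arrays.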

Other observations

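The genes whose brightest probe ran most like the BMF probe over the 12 arrays, among 24167 other genes, were LONP1 (Pearson r = 0.983), a protease of the mitochondrial matrix, GPCPD1 (0.981), PLA1A (0.980), NFE2L1 (0.980), a transcription factor of proteasome genes, and SERPINF1 (0.978). Their log2 differences at 42 µM were 0.80, 1.08, 1.40, 0.93 and 0.77. Most like the PMAIP1 probe were AREG (0.983), a ligand of the EGF receptor, SC5D (0.978), a desaturase of cholesterol synthesis, PLCG2 (0.971) and ZNF165 (0.969), followed by a probe without a gene name. Their log2 differences at 42 µM were 2.46 for AREG, 0.85 for SC5D, 0.43 for PLCG2 and 1.57 for ZNF165. The BMF and PMAIP1 probes correlated with each other at r = 0.89. All these values come from the same 12 arrays, which share the difference between treated and DMSO cultures, and they are a description without a test.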
